A study of Homo sapiens with 6 samples.

Results

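The lysosome is the acid compartment in which cells digest proteins, sugar chains, lipids and worn-out organelles. This account covers 39 genes of that compartment, which are CREG1, the cathepsins and other lysosomal proteases, the glycosidases and sulfatases, lipid-handling proteins, membrane proteins, subunits of the proton pump and the factors TFEB and TFE3. They were picked by gene symbol among the 15379 symbols of a count table, and all 39 had a row and enough counts to be tested. The set was built around CREG1, which was chosen by its fall in the contrast of 41C with 37C that is described here; the other members were picked for their role in the lysosome, with earlier results of the contrast known. The changes of the members in that contrast are therefore given with their standard errors (SE) as a description, with no p-value, and nothing is read from how many members were called.

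The cells were HaCaT, an immortalised line of human keratinocytes, and no genotype applies per the labels. Both groups followed the same schedule of 1 h on each of 3 days, at 37C for the 3 control libraries and at 41C for the 3 heat libraries. Messenger RNA was sequenced, and the tables hold reads counted per gene. The labels do not say whether replicates were separate cultures, so the spread between them, which is all that p-values measure here, may be technical. The sources used here give no interval between the final exposure and RNA extraction. HaCaT is 1 immortalised line and stands for no other keratinocytes here.

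The totals were 19659112 to 20856144 counts per library. The scale used below is CPM, counts per 1000000 counts of the tested genes after scaling of each library by the TMM method, and changes are log2 values at 41C minus 37C. Of the 10 keratinocyte markers listed for the check of identity, all were detected, and their summed level was 7260 to 7895 CPM at 37C and 8326 to 8633 CPM at 41C. Markers of leukocytes, which include the lysosome-rich macrophages, summed to 0.602 to 1.06 CPM at 37C and 0.437 to 0.856 CPM at 41C over 4 genes. Melanocyte markers summed to 1.96 to 2.68 and 1.71 to 2.96 CPM over 3 genes, fibroblast markers to 13.9 to 16.6 and 15.9 to 18.0 CPM over 5, and endothelial markers to 20.7 to 30.3 and 18.7 to 22.7 CPM over 3. The keratinocyte sum did not overlap between the groups, and 4 of its 10 genes were called higher at 41C, against 0.821% of all tested genes. Of the 10 changes, 8 were positive and 2 negative. KRT15 was lower at 41C without overlap, with a log2 change of -0.28, and was not called. The listed markers TYR, MLANA, SOX10, COL1A2, AIF1, TYROBP and KDR had no row in the count table and are not in these sums. What part this difference in the keratinocyte marker sum had in the values of the lysosomal genes was not tested.

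Lysosomal enzymes are made in the endoplasmic reticulum, most of them tagged with mannose 6-phosphate in the Golgi, and delivered by receptors that read the tag. The proton pump acidifies the lumen, which activates the hydrolases. The transcription factors TFEB and TFE3 raise many lysosomal genes together by binding a short promoter element known as CLEAR, whose centre is the E-box core CACGTG. In keratinocytes, lysosomal proteases and lipid hydrolases are also known for their part in the turnover of the skin's outer layers and in handling pigment received from melanocytes.

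Promoter sequences were looked up because this element is what lysosomal genes are known to share and because the choice of genes did not use it. RefSeq promoter windows on GRCh38.p14, from 250 bases before to 50 bases after an annotated start, were at hand for 28 of the 39 genes, in 41 windows of 300 bases, some of which overlap in genes with more than 1 start. CACGTG, which reads the same on both strands, was found in 8 of the 41 windows (19.5%), each of a different gene. The share was 9.37% of the 14383 windows of tested genes and 7.26% of all 35116 windows. The longer TCACGTGA, which also reads the same on both strands and contains the shorter core, was found in 5 of the 41 windows (12.2%), against 1.75% of windows of tested genes and 0.980% of all windows. Only exact matches were counted, so a window without a match may still hold a near variant of the element. A match describes letters in a window and is not evidence that a factor was bound there.

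**Figure D1:**
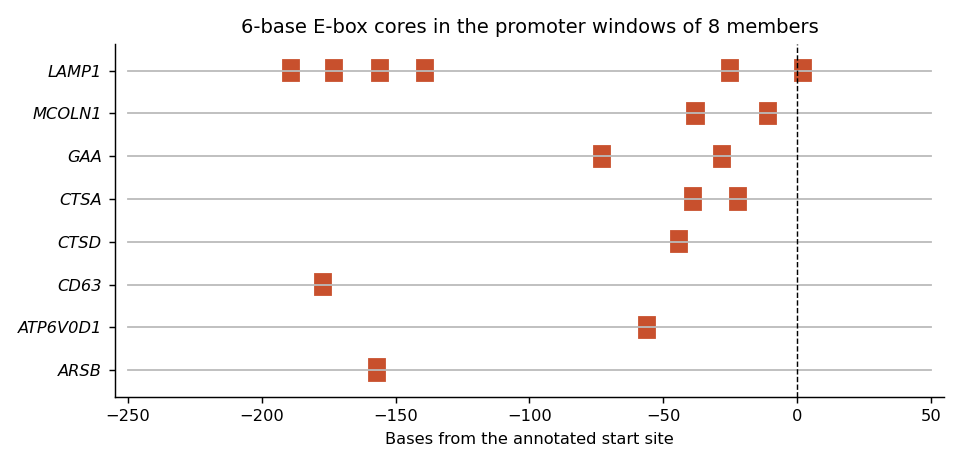
Positions of the 6-base E-box core in the promoter windows of the 8 lysosomal genes that hold it. The horizontal axis gives bases from the annotated start site (dashed line), each line is 1 window and each block is 1 core drawn to scale; LAMP1 has 6 cores, and the other genes have 1 or 2.

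The windows of 6 genes are shown, 5′ to 3′ on the gene's own strand, with CACGTG in capitals. CREG1 (chr1:167553713-167554012, minus strand) and TPP1 (chr11:6619373-6619672, minus strand) are the members called between the temperatures, and neither window holds the core. LAMP1 (chr13:113296989-113297288, plus strand) holds 6 cores, the first starting 192 bases before the start site. GAA (chr17:80101331-80101630, plus strand) and MCOLN1 (chr19:7522374-7522673, plus strand) hold 2 each, and in both genes each core is part of TCACGTGA. CTSD (chr11:1763878-1764177, minus strand), the member with the highest level, holds 1, starting 47 bases before the start site.
CREG1: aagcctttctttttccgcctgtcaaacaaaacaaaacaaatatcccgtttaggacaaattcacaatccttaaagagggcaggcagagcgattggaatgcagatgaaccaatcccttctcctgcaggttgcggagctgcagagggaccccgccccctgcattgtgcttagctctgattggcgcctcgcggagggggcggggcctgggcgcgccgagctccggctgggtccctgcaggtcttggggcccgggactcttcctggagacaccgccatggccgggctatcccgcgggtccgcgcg
TPP1: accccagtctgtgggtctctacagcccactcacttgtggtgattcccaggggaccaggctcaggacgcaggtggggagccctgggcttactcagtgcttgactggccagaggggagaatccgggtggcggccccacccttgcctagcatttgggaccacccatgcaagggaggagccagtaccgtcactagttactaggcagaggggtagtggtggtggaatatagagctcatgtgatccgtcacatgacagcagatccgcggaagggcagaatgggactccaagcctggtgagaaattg
LAMP1: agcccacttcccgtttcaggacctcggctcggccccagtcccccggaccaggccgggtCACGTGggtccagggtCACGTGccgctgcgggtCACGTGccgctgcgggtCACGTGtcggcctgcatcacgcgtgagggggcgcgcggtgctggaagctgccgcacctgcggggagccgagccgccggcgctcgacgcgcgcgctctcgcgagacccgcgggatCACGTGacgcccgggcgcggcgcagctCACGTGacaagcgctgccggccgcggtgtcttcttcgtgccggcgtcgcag
GAA: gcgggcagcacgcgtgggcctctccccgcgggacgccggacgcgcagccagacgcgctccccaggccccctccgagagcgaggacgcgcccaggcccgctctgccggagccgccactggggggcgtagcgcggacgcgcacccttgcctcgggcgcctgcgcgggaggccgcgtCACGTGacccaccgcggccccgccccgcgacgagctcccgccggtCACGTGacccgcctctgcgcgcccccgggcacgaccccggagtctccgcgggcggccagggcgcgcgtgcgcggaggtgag
MCOLN1: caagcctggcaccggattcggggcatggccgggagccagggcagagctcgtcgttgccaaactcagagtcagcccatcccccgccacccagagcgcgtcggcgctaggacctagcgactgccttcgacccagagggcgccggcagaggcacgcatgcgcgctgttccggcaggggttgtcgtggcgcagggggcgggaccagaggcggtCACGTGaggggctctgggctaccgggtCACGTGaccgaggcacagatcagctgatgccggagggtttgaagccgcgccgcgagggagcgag
CTSD: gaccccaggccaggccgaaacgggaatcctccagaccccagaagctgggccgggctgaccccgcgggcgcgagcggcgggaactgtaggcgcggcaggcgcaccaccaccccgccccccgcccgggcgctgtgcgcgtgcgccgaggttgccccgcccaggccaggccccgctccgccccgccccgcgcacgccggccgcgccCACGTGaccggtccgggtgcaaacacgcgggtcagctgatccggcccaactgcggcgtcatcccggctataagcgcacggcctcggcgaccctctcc
The other 4 genes with a core were CTSA with 2, the pump subunit gene ATP6V0D1, the tetraspanin gene CD63 in 1 of its 8 windows, and the sulfatase gene ARSB in 1 of its 2. Among the 8 genes with a core, 6 changes were positive, with a median of 0.10 on the log2 scale and a range of -0.04 to 0.21. Among the 20 with a window and no core 11 were positive, with a median of 0.04 and a range of -0.46 to 0.22. The difference between these groups was not tested. Outside the lysosomal set, the median log2 change was 0.016 over 1241 tested genes with the core in a window and 0.0011 over 8543 without it.

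The 39 genes included some of the more abundant transcripts of these cells. The levels of different genes are compared here as CPM per kilobase of the gene length that the FPKM table carries, averaged over the 6 libraries. On this scale 33 of the 39 lay above the middle of the 12056 tested genes, and 15 lay above the 90th percentile. CTSD, the aspartic protease cathepsin D, was first with 1027 CPM per kilobase (percentile 99.6). It was followed by PSAP, the precursor of the saposins that help enzymes reach sphingolipids, at 400.1, the cholesterol carrier NPC2 at 283, the membrane glycoprotein LAMP1 at 249 and CD63 at 166. GRN, which encodes progranulin, CREG1, CTSB, CTSH and LIPA followed at 137, 136, 131, 127 and 123. At the low end were MCOLN1, a lysosomal calcium channel, at 4.54, the mannosidase MANBA at 4.54, TFEB at 3.36, ARSB at 0.927, the fucosidase FUCA1 at 0.702 and the heparan sulfatase SGSH at 0.536. The median of the members was 33.2 CPM per kilobase and that of all tested genes 8.06. Among the members it was 8.54 in the glycosidases and sulfatases and 9.11 in TFEB and TFE3. Over 103 other tested lysosomal genes, described below, the median was 8.93 (median percentile 52.6). It differed between their lists, from 6.49 in the other membrane proteins and transporters to 32.1 (median percentile 82.0) in the other proton pump subunits. High levels were thus neither common to all lysosomal genes nor particular to the 39 picked genes.

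**Figure D2:**
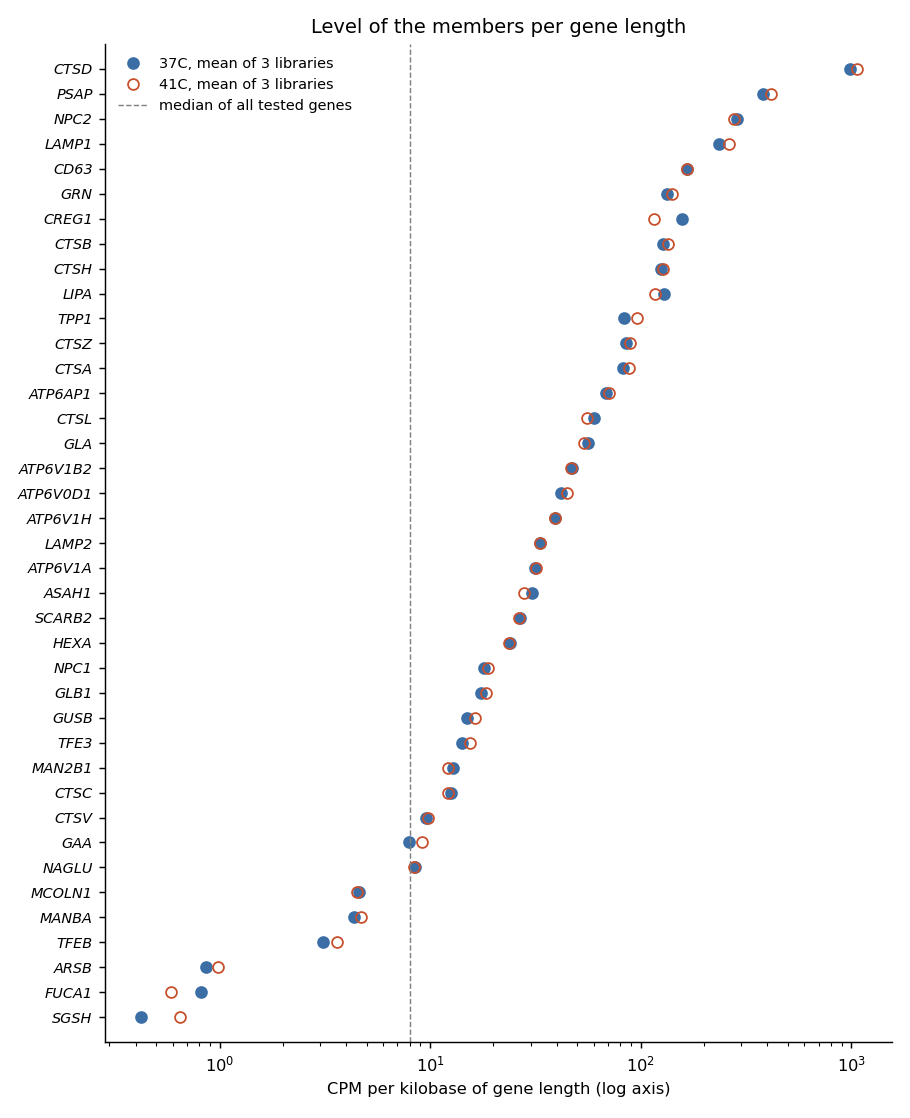
Level of each lysosomal gene in CPM per kilobase of gene length, on a log axis, as the mean of the 3 libraries at 37C (filled) and at 41C (open); the dashed line is the median of all tested genes. The order runs from CTSD to SGSH, and 33 of the 39 genes lie right of the dashed line.

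Most lysosomal transcripts differed little between the temperatures. Of the 39 genes, 23 had a log2 change of less than 0.1 in size, 23 were positive and 16 negative, and the median was 0.04. Over the 12056 tested genes 50.9% were positive, and the median was 0.0023. Without 37C replicate 1 the members' median was 0.022. At an adjusted p of 0.05 over all genes, edgeR's quasi-likelihood test called 2 members, CREG1 lower and TPP1 higher. Of all tested genes, 1.09% were called, 0.821% as higher and 0.265% as lower. In 11 members the libraries of one temperature all lay on one side of those of the other: TPP1, GAA, GUSB, PSAP, LAMP1, TFEB and TFE3 higher at 41C, and CREG1, CTSL, FUCA1 and LIPA lower. Of all tested genes, 20.0% were separated in this way, 11.2% higher and 8.84% lower. Together the members took 0.873, 0.917 and 0.934% of the counts at 37C and 0.918, 0.946 and 0.919% at 41C, in replicates 1, 2 and 3. Fewer cells with a transcript and less of it per cell cannot be told apart in such bulk samples.

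The 37C libraries were themselves uneven for these genes. In 20 of the 39 members 37C replicate 1 had the lowest level of all 6 libraries, and in none was it the highest. In 25 members 37C replicate 3 was the highest of the 37C libraries. Such counts were not made over all tested genes. The keratinocyte marker sum followed the same order, with 7260, 7634 and 7895 CPM in 37C replicates 1, 2 and 3. Its single genes differed: KRT5, the most abundant, rose in that order (2755, 2916 and 3133 CPM), while DSG3 fell (252, 248 and 229 CPM). Whether the pattern is particular to lysosomal genes was not tested. The number of members called was 6 without 37C replicate 3, when CTSA, CTSD, LAMP1 and PSAP joined as higher, and 3 without 37C replicate 1, when LIPA joined as lower. Calls over all genes also rose without 37C replicate 3, to 483 higher and 322 lower of 12154 tested, from 99 and 32 of 12056. Without 37C replicate 1 they were 119 higher and 104 lower of 12148. Of the members, only CREG1 was called when 37C replicate 2, 41C replicate 1 or 41C replicate 3 was left out. Calls over all genes were then 10 higher and 7 lower of 12155, 30 and 6 of 12161, and 30 and 11 of 12169. Without 41C replicate 2 no member was called and 6 of 39 had an unadjusted p under 0.05, against 1144 of 12154 genes, of which 4 were called higher and 1 lower.

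**Figure D3:**
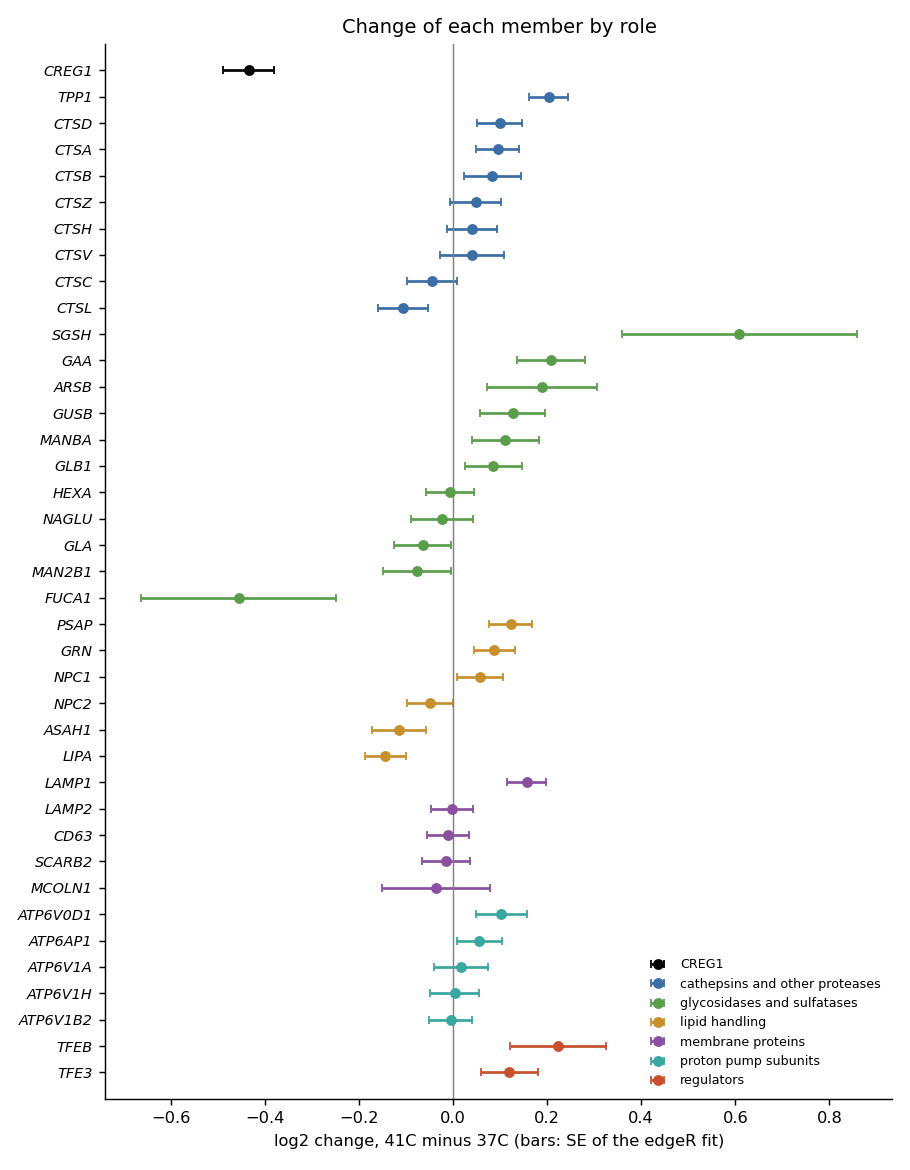
Log2 change at 41C minus 37C of each of the 39 lysosomal genes, grouped by role and sorted within each role; points are estimates of the edgeR fit over 3 against 3 libraries and bars are ± SE. CREG1 stands at -0.43, most other genes lie within 0.2 of zero, and SGSH and FUCA1 have wide bars and few counts.

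CREG1 encodes a small glycoprotein that is taken up into lysosomes. It had 299, 338 and 289 CPM at 37C and 227, 223 and 235 CPM at 41C. All 3 heat libraries lay below the lowest control library, and the control libraries were wider apart than the heat libraries. The means were 309 ± 25.7 CPM at 37C and 228 ± 6.17 CPM at 41C (SD, n = 3), 0.740 of the 37C level, and the log2 change was -0.43 ± 0.05. CREG1 had the 293rd-lowest change of the 12056 tested genes. Among the 2370 with a mean of at least 100 CPM, a range that includes 20 members, its change was the 5th lowest. On the log2 scale it was -0.37 without 37C replicate 2, its highest library, and -0.48 without 37C replicate 3, the ends of the range over libraries left out. These fits and the ranks of CREG1 reuse the contrast by which it was chosen and are a description only. The call ended without 41C replicate 2, where the change was -0.42 ± 0.07. CREG1 is 1969 bases long on the scale of the FPKM table, and with a correction of each library for gene length its log2 change was -0.39 ± 0.06.

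Among the 9 proteases, the endopeptidases and exopeptidases that digest proteins in the lysosome, 7 had a positive change, and the median was 0.05, and 0.022 to 0.095 over the libraries left out. TPP1, a peptidase that removes tripeptides from the ends of proteins, had 288, 284 and 302 CPM at 37C and 340.1, 334 and 333 CPM at 41C. Every heat library lay above every control library. The means were 291 ± 9.78 CPM at 37C and 336 ± 3.98 CPM at 41C (SD, n = 3), and the log2 change was 0.20 ± 0.04. TPP1 was no longer called without 37C replicate 2 or any of the 41C replicates (log2 changes of 0.18 to 0.21), nor with upper-quartile scaling (0.18) or on log2(FPKM + 1) (0.18).

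CTSD had 1909.7, 2051 and 2151 CPM at 37C and 2157, 2247 and 2143 CPM at 41C. The groups overlapped by a little, since 37C replicate 3 lay above 41C replicate 3, and the log2 change was 0.10 ± 0.05. CTSB, a cysteine protease and the next most abundant in CPM, had 579, 646 and 657 CPM at 37C and 612, 676 and 706 CPM at 41C. These groups overlapped widely, with 37C replicate 1 below all others, and the change was 0.08 ± 0.06. CTSH, an aminopeptidase of the same family, had 323, 366 and 379 CPM at 37C and 359, 371 and 368 CPM at 41C, again with the lowest value in 37C replicate 1, and a change of 0.04 ± 0.05. CTSA, a carboxypeptidase that also protects the galactosidase GLB1 and a sialidase from breakdown, had a change of 0.10 ± 0.05. Its exons share 3.42% of their bases with PLTP and 17.7% with NEURL2 on the opposite strand in GENCODE release 29, and since the strand setting of the counting is not given, their reads may not have been told apart. On the same strand, CTSD shares 41.7% of its exonic bases with AC068580.4, which has no row in the count table. Smaller shares with genes that have no row include those of MAN2B1 (13.1%, AC010422.3), NAGLU (12.6%, AC067852.1) and TPP1 (11.55%, AC091564.7). What these overlaps did to the counts is not known. CTSZ, a carboxypeptidase, and CTSC, which activates serine proteases, had changes of 0.05 ± 0.05 and -0.05 ± 0.05.

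CTSL and CTSV are close relatives, both cysteine proteases, and CTSV is known for its narrow expression, which includes the epidermis. CTSL had 93.3, 96.0 and 99.9 CPM at 37C and 87.5, 92.4 and 88.9 CPM at 41C. Its groups did not overlap, by a margin of less than 1 CPM between 37C replicate 1 and 41C replicate 2, and the change was -0.11 ± 0.05. CTSV had 41.3 to 42.9 CPM at 37C and 40.2 to 46.0 CPM at 41C, a wider range at 41C that held all 3 control libraries, and a change of 0.04 ± 0.07. With their counts summed, the change of the pair was -0.06 ± 0.05. With the length correction CTSL had a change of -0.05.

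**Figure D4:**
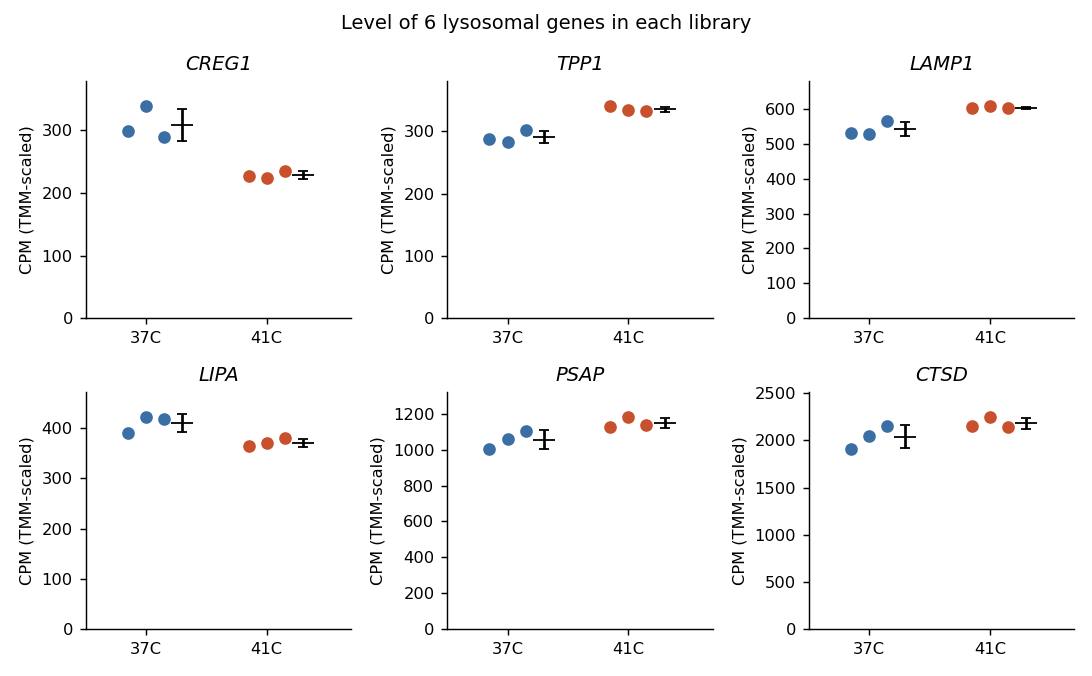
CPM in each library of CREG1, TPP1, LAMP1, LIPA, PSAP and CTSD at 37C and 41C, with axes from 0; dots are the libraries in order of replicate and the bar beside them is the mean ± SD of 3 libraries. CREG1 and LIPA are lower and TPP1, LAMP1 and PSAP higher at 41C without overlap, while the CTSD groups overlap.

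The 11 glycosidases and sulfatases remove sugars and sulfate groups from glycoproteins, glycolipids and glycosaminoglycans. Of these, 6 had a positive change, and the median was 0.09. HEXA, a subunit of the hexosaminidase that degrades a brain ganglioside, had 109, 116 and 119.6 CPM at 37C and 112, 116 and 115 CPM at 41C. The heat libraries lay inside the range of the control libraries, and the change was -0.0067 ± 0.05. GLA, the galactosidase missing in Fabry disease, had 68.9, 76.3 and 77.8 CPM at 37C and 74.3, 70.8 and 68.2 CPM at 41C, with overlapping groups and a change of -0.06 ± 0.06. GLB1, the beta-galactosidase often stained as a mark of senescent cells, had 56.5, 54.0 and 61.2 CPM at 37C and 60.1, 61.5 and 60.6 CPM at 41C. Here 37C replicate 3 lay among the heat libraries, and the change was 0.09 ± 0.06.

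GAA, the glucosidase that degrades lysosomal glycogen, had 28.5 to 29.9 CPM at 37C and 31.6 to 35.0 CPM at 41C and a change of 0.21 ± 0.07. The groups did not overlap, and the change was 0.18 to 0.26 over the libraries left out. GUSB, the glucuronidase, was also separated, with a change of 0.13 ± 0.07. The mannosidases MANBA and MAN2B1 had changes of 0.11 ± 0.07 and -0.08 ± 0.07, opposite in sign. NAGLU, an enzyme of heparan sulfate breakdown, had a change of -0.02 ± 0.07, and ARSB, which removes sulfate from dermatan sulfate, one of 0.19 ± 0.12. SGSH, another enzyme of heparan sulfate breakdown, had the highest estimate of all members, 0.61 ± 0.25, but on few reads: 24, 42 and 35 in the control libraries against 43, 63 and 53 in the heat libraries, with overlap. FUCA1 had 52, 54 and 55 reads in the control libraries against 38, 47 and 36 in the heat libraries, without overlap, and the lowest estimate, -0.46 ± 0.21. These were the members with the fewest counts, and their SE were the largest of the set.

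Lipid-handling genes differed in sign, with 3 positive and 3 negative changes and a median of 0.0041, which ran from -0.033 to 0.032 over the libraries left out. PSAP had 1004, 1059 and 1107 CPM at 37C and 1128, 1182 and 1138 CPM at 41C. Each heat library lay above each control library, and the change was 0.12 ± 0.05. LIPA, the acid lipase that frees cholesterol and fatty acids from lipoproteins, had 391, 422 and 419 CPM at 37C and 364, 369.9 and 379.8 CPM at 41C. Each heat library lay below each control library, and the change was -0.14 ± 0.04. It shares 1.32% of its exonic bases with IFIT2 on the opposite strand, which had a log2 change of -0.23 ± 0.06. The strand setting of the counting is not known for this pair either, nor for SGSH, which shares 2.28% of its exonic bases with CARD14 on the opposite strand, NPC1, which shares 5.98% with RMC1, and NPC2, which shares 3.75% with ISCA2. The values of these genes carry the same doubt.

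NPC1 and NPC2 pass cholesterol from the lumen to the lysosomal membrane in turn. NPC2 had 335, 368 and 365 CPM at 37C and 327, 349.6 and 356 CPM at 41C, with overlapping groups and a change of -0.05 ± 0.05. It was 0.02 with the length correction, and the length of NPC2 is 1239 bases. NPC1 had a change of 0.06 ± 0.05. ASAH1, the acid ceramidase, had a change of -0.11 ± 0.06, and GRN, whose product is needed for lysosomal lipid balance, one of 0.09 ± 0.04, both with overlapping groups.

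Of the 5 membrane proteins, LAMP1 was the most abundant and the 1 with a positive change; the median of the group was -0.01, and -0.034 to 0.027 over the libraries left out. LAMP1 had 531, 529.5 and 565 CPM at 37C and 602, 607 and 602 CPM at 41C. The heat libraries were all above the control libraries, the means were 542 ± 20.0 CPM at 37C and 604 ± 3.07 CPM at 41C (SD, n = 3), and the change was 0.16 ± 0.04. Among the fits without a replicate block, LAMP1 was called in DESeq2, without the filter on low counts, with the length correction and without 37C replicate 3, at changes of 0.15 to 0.19, and in no other. LAMP2, the related protein that also serves chaperone-mediated autophagy, had 313, 317 and 306 CPM at 37C and 311, 325 and 299 CPM at 41C. The 41C libraries spanned the range of the 37C libraries, and the change was -0.0024 ± 0.04. The difference between the changes of LAMP1 and LAMP2 was not tested. CD63, a tetraspanin of late endosomes and exosomes, had 293, 302 and 324 CPM at 37C and 303, 302 and 307 CPM at 41C, and a change of -0.01 ± 0.05. SCARB2, which carries glucocerebrosidase to the lysosome, and MCOLN1 had changes of -0.02 ± 0.05 and -0.04 ± 0.11.

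Proton pump subunits differed little. The 5 changes ran from -0.0054 to 0.10 with a median of 0.02, and each of the 5 had overlapping groups. ATP6AP1, an accessory subunit needed for assembly of the pump, had 144, 149 and 157 CPM at 37C and 155, 157 and 156 CPM at 41C and a change of 0.06 ± 0.05. ATP6V1A, the catalytic subunit that hydrolyses ATP, had 151, 147 and 134 CPM at 37C and 152, 151 and 135 CPM at 41C, with the lowest values in both replicates numbered 3, and a change of 0.02 ± 0.06. ATP6V1B2, the non-catalytic partner in the same ring, had 132, 135 and 136 CPM at 37C and 132, 136 and 134 CPM at 41C and a change of -0.0054 ± 0.05. ATP6V1H, a regulatory subunit, and ATP6V0D1, which links the rotor to the membrane ring, had changes of 0.0037 ± 0.05 and 0.10 ± 0.05.

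The regulators TFEB and TFE3 were both separated between the temperatures. TFEB had 10.54, 11.38 and 10.03 CPM at 37C and 12.96, 12.13 and 12.19 CPM at 41C, a change of 0.22 ± 0.10 on 198 to 270 counts per library. TFE3 had 44.6, 45.9 and 48.0 CPM at 37C and 51.3, 49.9 and 49.2 CPM at 41C, a change of 0.12 ± 0.06. In both genes the lowest heat library lay above the highest control library, and neither was called. These are transcript levels; the activity of both factors depends on their entry into the nucleus, which these data do not measure.

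**Figure D5:**
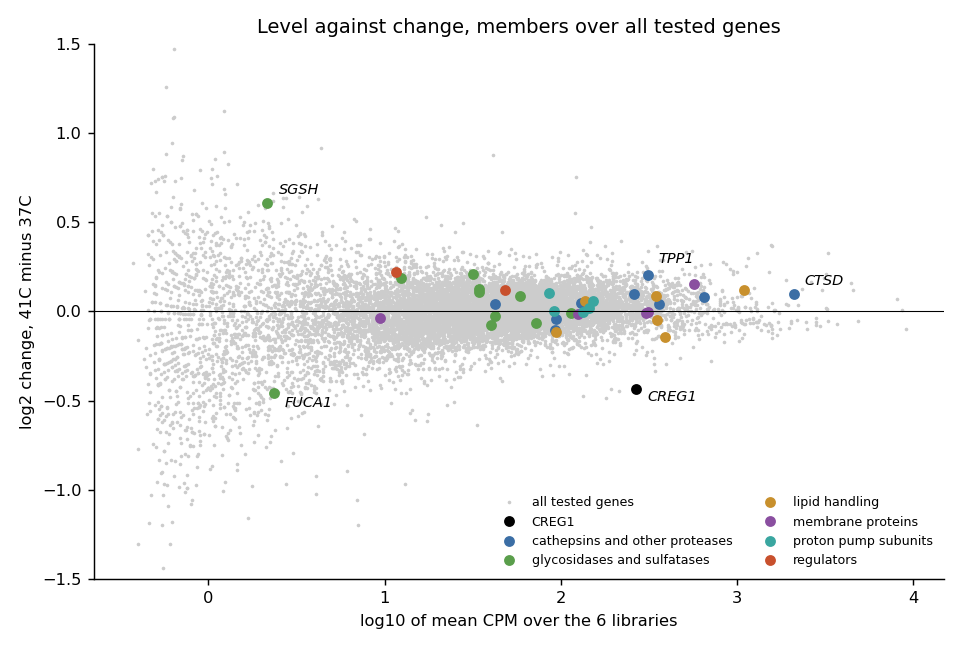
Log10 of the mean CPM over the 6 libraries against the log2 change at 41C minus 37C for all tested genes (grey, 12 lie outside the plotted range) and for the lysosomal genes coloured by role. CREG1 lies among the lowest changes for its level, TPP1 lies above most genes of its level, and SGSH and FUCA1 lie where the cloud is wide.

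Other genes of the lysosome were taken from lists of textbook members. Of 103 tested genes, edgeR called 1 higher, IGF2R, and 0 lower at an adjusted p of 0.05 over all genes, with 5 higher and 8 lower at an unadjusted p under 0.05. Over all 12056 genes, 914 were higher and 738 lower at that p. DESeq2 and limma-voom likewise called IGF2R alone. The median log2 change was -0.0082. IGF2R encodes the large receptor that carries enzymes tagged with mannose 6-phosphate to the lysosome. It had 182, 165 and 179.8 CPM at 37C and 210.5, 212 and 208 CPM at 41C, with all heat libraries above the control libraries, and rose 1.2-fold (0.26 ± 0.05, edgeR adjusted p = 0.0156). Of the 10 sorting genes, 8 changes were positive. The call of IGF2R ended without 37C replicate 2, without each of the 41C replicates, on log2(FPKM + 1) and with the length correction, where the change was 0.21 ± 0.06. Its length was 14061 bases, against a median of 3535 over these other lysosomal genes.

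Among the other 39 hydrolases, the genes with the smallest p-values were LGMN, an asparagine-specific protease with a log2 change of 0.27 ± 0.07 (edgeR adjusted p = 0.0547), and CTSS, a cysteine protease with -0.51 ± 0.13 (edgeR adjusted p = 0.0710). Neither passed here, and the median of the list was -0.0032. Among the fits without a replicate block, LGMN was called without the filter on low counts, with the length correction and without 37C replicate 3, and CTSS with upper-quartile scaling, without the filter and without 37C replicate 1 or 3. Among 24 other membrane proteins and transporters, OSTM1, a subunit of a lysosomal chloride transporter, had a change of -0.27 ± 0.10 (edgeR adjusted p = 0.253). Among 14 other pump subunits, 11 changes were negative and the median was -0.07. The smallest p-values were those of ATP6V0E2 and ATP6V1E1, with -0.30 ± 0.10 and -0.12 ± 0.05 (edgeR adjusted p = 0.200 and 0.282). These subunits have short genes, with a median length of 1921 bases, and their median was -0.0033 with the length correction. Of 16 genes for the related TFE factors and the growth-sensing kinase complex at the lysosome, MTOR, the kinase itself, and RPTOR, its scaffold, had changes of 0.18 ± 0.05 and 0.16 ± 0.06 (edgeR adjusted p = 0.102 and 0.288).

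Gene length moved with the contrast over all tested genes. Across genes, which are not independent replicates, log2 change and length had a Spearman rho of 0.254. The median change was -0.04 in the shortest 3014 of the tested genes and 0.04 in the longest. The members had a median length of 3187 bases, against 4038 for all tested genes, and 11 of the 39 were longer than that. With the length correction the members' median change was 0.04, CREG1, TPP1 and LAMP1 were called, and the part of length in other single changes was not tested.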

How the data were processed

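Per the labels' protocols, RNA came from a mirVana extraction, and the TruSeq Stranded mRNA chemistry was used for the libraries. The submitters' processing notes name Trimmomatic 0.36, HISAT2 and GRCh38.p13. The counting program, annotation and strand setting were not given in the sources used here. The deposited counts are raw whole numbers per gene symbol. The deposited FPKM values equalled count per kilobase relative to the library total for 100% of nonzero values within 0.01%, so they gave only gene lengths and 1 alternative fit.

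The 2 groups were compared by edgeR 4.0.16 under R 4.3.3 (filterByExpr, which kept 12056 genes, TMM scaling, robust quasi-likelihood fit, two-sided, Benjamini-Hochberg adjustment over all tested genes, threshold 0.05). The SE is the absolute log2 change divided by the root of the test statistic. Group values are mean ± SD of 3 libraries. With 3 against 3, an exact permutation test of 1 gene cannot go below 0.1. The members and lists were chosen with earlier results of these data known. Values in every library are given for CREG1, for called members and for the 3 members of highest CPM in each role; of each other list, called genes or the 2 with the smallest p are named. A result that this rule would name is not reported here. Alternatives were DESeq2 1.42.0, limma-voom and limma on log2(FPKM + 1) (limma 3.58.1), upper-quartile scaling, no filter or one of 1 CPM in at least 3 libraries, replicate number as a block, a correction for gene length (splines with 4 degrees of freedom), and each library left out. On data simulated for this comparison with 12056 genes, the share of changed genes that edgeR found was 36.7% for a 1.2-fold change, 76% for 1.3-fold, 84% for 1.5-fold and 95.9% for 2-fold. Of 163 calls there, 18 were false, a larger share than the 0.05 that the threshold names.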

Additional observations from a re-analysis of the deposited data

How the results depend on the processing

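CREG1, TPP1 and IGF2R kept their sign in every alternative run. Their groups did not overlap and all runs reuse the same libraries, so a kept sign is a description and no independent support. CREG1 ran from -0.48 to -0.37 on the log2 scale with libraries left out and from -0.45 to -0.39 otherwise. The counts of called genes depended on the setting. Members called higher, 1 in the fit reported, were 2 with DESeq2, without a filter and with the length correction, 3 with the replicate block, 0 with upper-quartile scaling and on log2(FPKM + 1), and 0 to 5 with libraries left out. Members called lower, 1 as reported, were 2 with the replicate block and 0 to 2 with libraries left out. Other lysosomal genes called higher, 1 as reported, were 2 without a filter, 3 with the replicate block, 0 on log2(FPKM + 1) and 0 to 5 with libraries left out; those called lower, 0 as reported, were 1 with upper-quartile scaling, without a filter and with the replicate block, and 0 to 1 with libraries left out. Over all genes, 99 were higher and 32 lower; the numbers were 161 and 56 with DESeq2, 57 and 53 with upper-quartile scaling, 184 and 100 without a filter, 297 and 141 with the replicate block, 5 and 6 on log2(FPKM + 1), and 4 to 483 and 1 to 322 with libraries left out. The highest counts came without 37C replicate 3 and the lowest without 41C replicate 2; these fits have fewer samples, and the cause of the shifts was not tested.

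The median log2 change of the other lysosomal genes was 0.017 with the length correction and -0.042 to 0.013 with libraries left out. Over libraries left out, the medians were 0.043 to 0.14 for glycosidases and sulfatases, -0.0082 to 0.056 for pump subunits and 0.15 to 0.19 for the regulators, which were at 0.13 on log2(FPKM + 1). Replicate numbers were used as a block because both groups carry 1, 2 and 3, but same-numbered libraries correlated at 0.082, -0.019 and 0.077 in their deviations from the group means, and 37C replicate 2 correlated best with 41C replicate 3, so the numbers do not show a pairing. The members called with the block were CREG1, LAMP1, LIPA, PSAP and TPP1, and the other lysosomal genes were CTSS, IGF2R, LGMN and MTOR. SGSH and FUCA1, at 24 to 63 counts per library, are limited by depth.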
